A study of Mus musculus with 18 samples.

Results

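Zfp genes encode zinc-finger proteins, and chimeric reads joining a microRNA (miRNA) to a target RNA were examined here over the 168 most read of them in mouse thymocytes. A member was a protein-coding gene of the RefSeq GRCm38.p6 gene table whose symbol is Zfp followed only by digits, with Zfp185 left out, and with 20 or more chimeric reads summed over 12 libraries. Members were thus chosen by their total read number, which is given as a description only. Of 366 genes with such a symbol, 168 were members, 147 had 1 to 19 reads and 51 had 0 reads. The members held 20802 reads, between 20 and 817 each with a median of 67.5, and 64 of them had 100 or more. Of these reads 14159 came from wild-type libraries enriched for miR-181, so the choice can favour genes rich in miR-181. Just inside the threshold were Zfp54, Zfp101 and Zfp707 with 20 reads each, and just outside were Zfp551, Zfp692 and Zfp830 with 19 reads each. In all, 6164 protein-coding genes reached 20 reads.

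The libraries were made by miR-eCLIP, in which ultraviolet light fixes RNA to the Argonaute 2 (Ago2) that holds it, a carrier of miRNAs, and the miRNA is ligated to the target fragment held by the same protein. Total thymocytes, the developing T cells of the thymus, came from mice aged 6 weeks that were either C57BL/6 (wild type) or of the genotype B6.Mirc14tm1.1Ankr, titled miR181a/b-1-KO (knockout). Each genotype was assayed by an Ago2 immunoprecipitation alone (here, the IP) and by one further enriched for miR-181-5p (here, enriched), with 3 libraries in each of these 4 groups. The 6 input samples of the series were not analysed here, so RNA levels of the genes were not available as a reference. The labels do not say whether the 3 samples of a group came from separate mice, nor whether mice were pooled, so p-values measure the spread between these samples.

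Most Zfp proteins carry a row of C2H2 zinc fingers, short modules that each hold a zinc ion and contact DNA. In large numbers of them a KRAB domain recruits Trim28 and, through it, chromatin-silencing enzymes to retroelements and other repeats. The fingers of a row are near copies of each other, so the coding sequence is itself a repeat with a unit of 84 nt (28 residues). The name is not confined to this class: Zfp36, for example, is tristetraprolin, an RNA-binding protein of another finger type that speeds the decay of AU-rich mRNAs. The miR-181 family is abundant in thymocytes, where it is known for lowering phosphatases that dampen T cell receptor signals, and published work on miR-181 has described sites repeated within the coding sequences of zinc-finger genes.

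The miRNA sequences are shown because the 4 miR-181-5p forms have a common seed, bases 2 to 8, which is in capitals and is the part that pairs first with a target. They are RefSeq sequences of GRCm38.p6, written 5′ to 3′, with miR-142a-3p, the most frequent miRNA outside the family, for comparison.
miR-181a-5p: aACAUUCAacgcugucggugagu
miR-181b-5p: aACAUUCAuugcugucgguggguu
miR-181c-5p: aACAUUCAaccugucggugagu
miR-181d-5p: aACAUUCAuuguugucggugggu
miR-142a-3p: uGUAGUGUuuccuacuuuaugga
The deleted genes encode miR-181a and miR-181b, of which other copies exist elsewhere in the genome, while miR-181c and miR-181d come from a separate cluster. Below, miR-181 means the 4 forms together.

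Libraries held 43983 to 117849 chimeric reads in the wild-type IP, 52100 to 67639 in the knockout IP, 194628 to 293149 in the wild-type enriched group and 6832 to 19264 in the knockout enriched group. The knockout enriched libraries are therefore the least precise, and 3 reads, the floor used for a count of 0, made 0.0156% to 0.0439% of one of them against 0.00102% to 0.00154% in the wild-type enriched group. Hairpin reads checked the labels: the Mir181a-1 hairpin had 363 to 545 reads per library in the wild-type IP and 0 in each knockout library. All 14 thymocyte markers (Cd4, Cd8a, Rag1 and others) had reads over the 12 libraries together, with a summed level per library of 12508 to 15808 reads per 1000000 chimeric reads (rpm). The 4 B cell markers summed to 0 to 51.9 rpm and the 4 myeloid markers to 0 to 51.9 rpm, and of the thymic epithelial markers Krt5, Krt8 and Psmb11 were at 0 throughout. Red cell markers summed to 0 to 146 rpm. The endothelial pair Pecam1 and Cdh5 summed to 246 to 305 rpm in the wild-type and 378 to 458 rpm in the knockout IP, and to 77.1 to 103 rpm in the wild-type and 259.6 to 328 rpm in the knockout enriched libraries. The genotypes thus stood apart in the chimeric reads of the endothelial pair, and the part of these cells in the results was not tested. Such levels are shares of a library's chimeric reads and not RNA levels, so they do not measure the number of endothelial cells. The share of miR-181 in the libraries differed between the genotypes too, and its part in these levels was not tested. Libraries of one group were compared by a chi-square test of their counts over genes. With genes of 10 or more reads over the pair, all 12 pairs differed by more than sampling noise at an unadjusted p under 0.05. With genes of 20 or more reads 11 of the 12 did. The exception was libraries 2 and 3 of the knockout enriched group, where the chi-square test gave p = 0.183 over 136 genes, against p = 0.00297 over 449 genes at 10 reads. They were kept as 2 samples, on which the SDs and tests of that group rest. In such bulk samples fewer cells of a type and less RNA per cell cannot be told apart.

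A larger share of the chimeras on Zfp members than on other protein-coding genes carried miR-181. This is a description: the reads on which members were chosen were mostly miR-181 chimeras (16048 of 20802). The other genes were taken without the 20-read threshold. In the wild-type IP the 3 libraries gave 39.9%, 41.0% and 39.2% of member reads, a mean of 40.1% ± 0.893 (SD, n = 3), against 30.9% ± 0.961 for all other protein-coding genes. The difference within a library was 7.35 to 10.2 percentage points, and members lay above the other genes in 3 of 3 libraries. In the knockout IP the share was 1.43%, 1.84% and 2.55%, a mean of 1.94% ± 0.569, against 1.39% ± 0.0624, with a difference of 0.0947 to 1.1 points. These knockout values rest on 44 miR-181 reads of 2305, and the 95% Wilson interval of the lowest library, 0.800% to 2.54%, takes in the mean of the other genes.

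After enrichment nearly every chimera in the wild type carried miR-181, 99.1% ± 0.263 on members and 98.9% ± 0.226 on other genes. In the knockout enriched libraries members had 81.4%, 78.2% and 74.5%, a mean of 78.1% ± 3.45, and other genes 72.0% ± 0.874. The difference there was 2.01 to 10.5 points and again had the same sign in 3 of 3 libraries. The families fixed for comparison showed no common pattern in the wild-type IP: the share was 30.3% ± 2.65 for 20 Zbtb genes, 39% ± 2.43 for 15 Zc3h genes and 25.9% ± 2.39 for 6 Klf genes. The Zc3h mean lay below the lowest Zfp library, and the spread of the Zc3h libraries took in the Zfp mean. No test was run on these shares, since the members were chosen with earlier results of these data known.

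**Figure D1:**
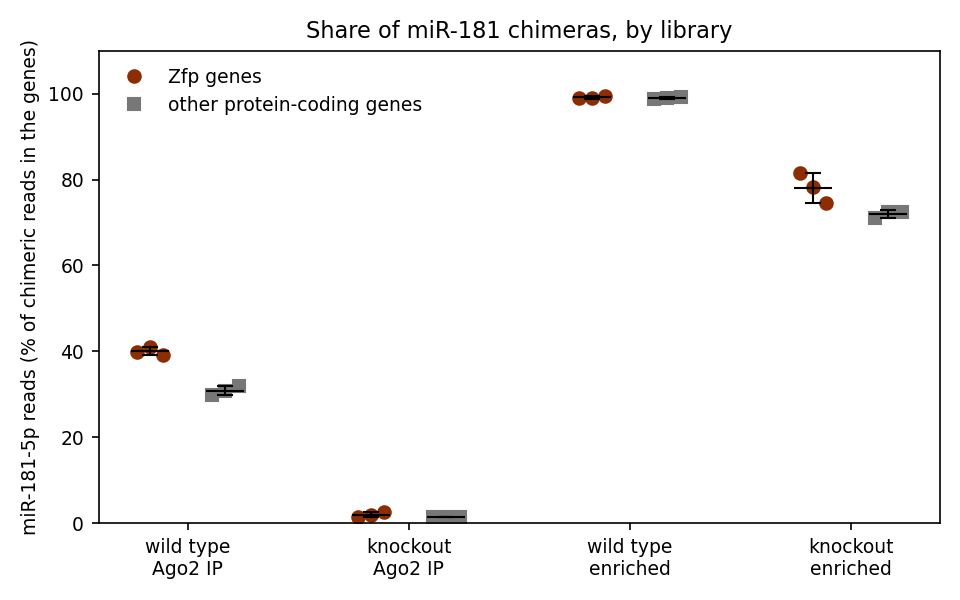
Share of chimeric reads that carried miR-181-5p (%, vertical axis) in each of the 12 libraries, for the 168 Zfp genes (circles) and all other protein-coding genes (squares); black bars are the mean and SD of 3 libraries. The Zfp genes lay near 40.1% in the wild-type IP, above the 30.9% of the other genes, and near 1.94% in the knockout.

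The members' share of all reads in protein-coding genes differed between groups as well. It was 1.82% ± 0.0228 in the wild-type IP, 1.45% ± 0.0145 in the knockout IP, 2.46% ± 0.130 in the wild-type enriched and 1.83% ± 0.0858 in the knockout enriched libraries (n = 3 each). The lowest wild-type IP library stood at 1.8% and the highest knockout one at 1.46%, so the genotypes did not overlap. The members were chosen on the sum of these same reads, mostly wild-type enriched ones, so these shares are a description only.

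The forms of miR-181 on the members differed between the genotypes in both kinds of library. In the enriched libraries miR-181a-5p made 84.8% ± 2.28 of the wild type's and 42.6% ± 2.06 of the knockout's miR-181 reads on members. There, in the same order, miR-181c-5p made 0.879% ± 0.197 and 29.9% ± 3.03, and miR-181d-5p 0.398% ± 0.0461 and 10.5% ± 2.49. In the IP miR-181a-5p made 79.2% ± 0.848 against 25.3% ± 1.89, the latter from 44 miR-181 reads in all. Among other protein-coding genes miR-181a-5p made 81.1% ± 1.82 and 44.8% ± 0.733 in the enriched and 76.1% ± 0.545 and 36.4% ± 1.18 in the IP libraries, so a lower share of this form was not confined to Zfp genes. In the knockout IP miR-181c-5p made 40.2% ± 14.8 on members and 21.6% ± 2.08 on other genes, from 17 of 44 reads on members.

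The remaining chimeras on members were led by miR-142a-3p, a miRNA of blood cells. Leaving miR-181 out of the total, it made 45.9% ± 0.961 of member reads and 39.7% ± 0.507 of those on other genes in the wild-type IP. In the knockout the corresponding shares were 42.0% ± 2.11 and 39.7% ± 1.01, within the spread of the libraries. Next, miR-16-5p made 4.05% ± 0.543 on members and 5.87% ± 0.0816 on other genes in the wild type, and miR-20a-5p 4.07% ± 1.13 and 4.72% ± 0.0709.

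The high average came from some members and not from others. In the wild-type IP 41 members had 30 or more reads, and their miR-181 shares ran from 4.92% to 84.6% with a median of 39.5%, against a median of 28.6% over 1756 protein-coding genes with that many reads. Above 50% stood 14 of the 41 members (34.1%) and 155 of the 1756 genes (8.83%). Below 10% stood 6 members (14.6%) and 79 genes (4.50%). Members were therefore more frequent at both ends of the range than protein-coding genes as a whole.

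At the high end were Zfp944 with 84.6% (33 of 39 reads, 95% Wilson interval 70.3% to 92.8%), Zfp809 with 80.4% (41 of 51), Zfp60 with 75.6% (31 of 41) and Zfp157 with 74.5% (35 of 47). Zfp809 is a KRAB zinc-finger protein that recognises the primer binding site of murine leukaemia viruses and silences them. At the low end were Zfp275 with 4.92% (3 of 61 reads, interval 1.69% to 13.5%), Zfp91 with 6.06% (2 of 33), Zfp36 with 6.25% (4 of 64) and Zfp335 with 6.98% (3 of 43). Zfp91 is a ubiquitin ligase of non-canonical NF-kB signalling, and Zfp335 is a chromatin factor needed for T cell maturation. The intervals of the 4 highest members and of the 4 lowest did not overlap, and they cover counting error only. These genes were picked as the ends of the ranking, so this is a description and not a test.

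**Figure D2:**
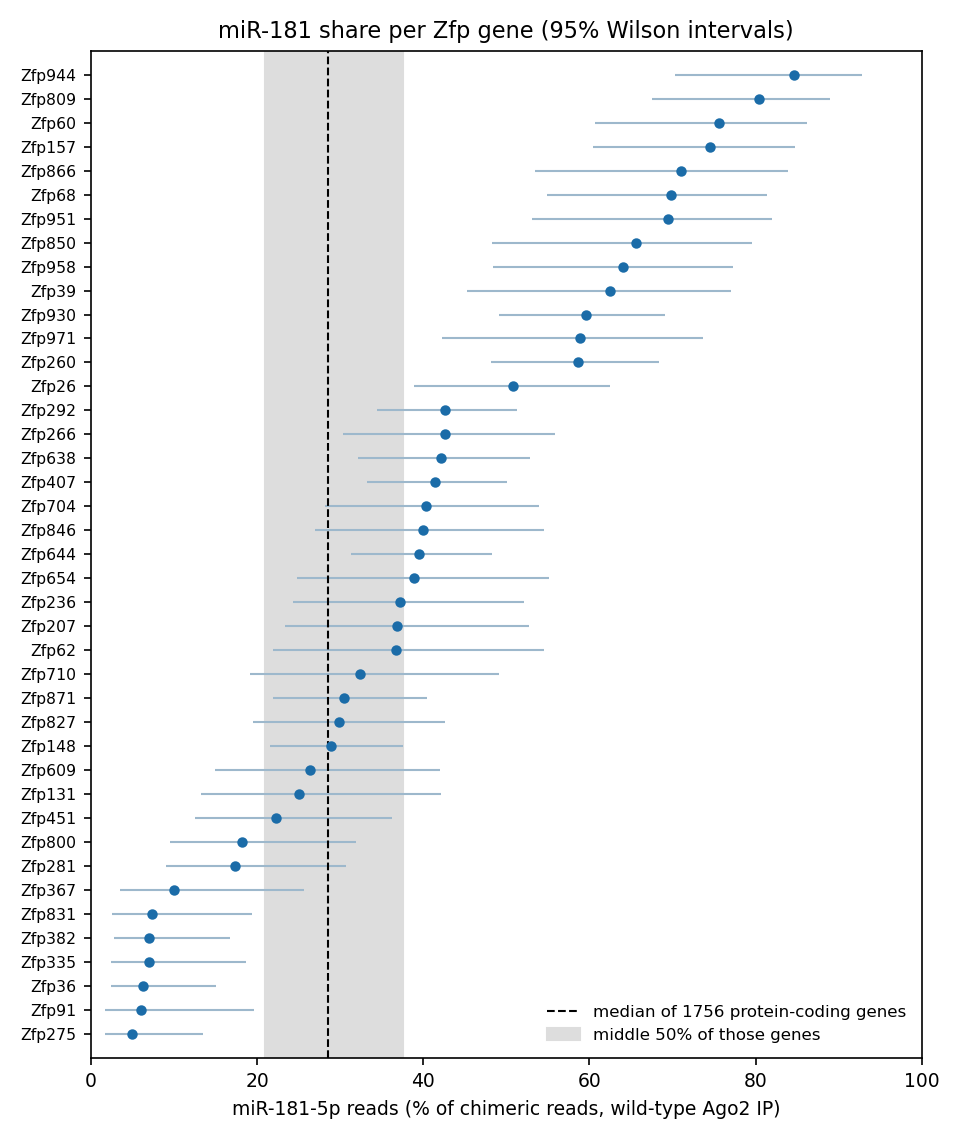
Share of miR-181-5p among the pooled chimeric reads of each of the 41 Zfp genes with 30 or more reads in the 3 wild-type IP libraries (%, horizontal axis; points with 95% Wilson intervals for counting error). The dashed line is the median of all 1756 protein-coding genes with as many reads (28.6%) and the band their middle range; 14 Zfp genes lay above 50% and 6 below 10%.

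Strand qualified the value of Zfp335. RefSeq promoters gave the strand of 140 members, and 98.1% of their reads lay on the gene's strand. For Zfp335, on the minus strand, 35 of the 43 reads in the wild-type IP lay on the plus strand, of which 0 carried miR-181, and 8 on the gene's own strand, of which 3 carried it. Its low share therefore pools a few reads of its own strand with many of the opposite one. Over all 12 libraries 77 of its reads lay on the plus strand, 5 of them with miR-181, and 39 on the minus strand, 28 of them with miR-181. For Zfp39, also on the minus strand, 124 of 270 reads over the 12 libraries lay on the plus strand, 111 of them with miR-181. The reads were otherwise counted without regard to strand.

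The members' miR-181 reads were spread over many positions. Positions of one gene and strand were chained into a site where neighbours lay 20 nt or less apart, which gave 4856 sites, a median of 21 per member and a range of 4 to 201. The median of the 5996 other protein-coding genes with 20 or more reads was 22 sites. Most sites were thin: 70.9% of members' sites and 76.2% of other genes' sites held 1 read. The number of sites grew with reads, so a second measure was used, the probability that 2 miR-181 reads of a gene lie in different sites. Its median was 89.0% in members and 93.7% in other genes, and in genes with 160 or more miR-181 reads it was 83.0% in 29 members and 89.4% in 889 others. By this measure reads of members were somewhat more concentrated than those of other genes at like depth.

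Most sites by number were found in Zfp407 (201), Zfp644 (190), Zfp148 (139), Zfp292 (120), Zfp871 (97), Zfp638 (91), Zfp704 (90) and Zfp236 (78). ZNF644, the human form of Zfp644, works with the histone methyltransferases G9a and GLP, and Zfp638 recruits the HUSH silencing complex to retroviral DNA. In Zfp407 the best site held 64 of 452 miR-181 reads, and in Zfp644 26 of 388, so these genes had many weak sites and no dominant one. Zfp148 and Zfp638 differed, with 104 of 317 and 114 of 248 reads in their best site.

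Repeated measurement left far fewer sites. A site was called reproducible where each of the 3 wild-type enriched libraries had 3 or more reads in it, and 151 sites of members met this. Of the members 88 had 0 such sites, 42 had 1 and 38 (22.6%) had 2 or more, the last compared with 15.0% of other protein-coding genes. At least 3 were found in 17 members (10.1%) and in 6.97% of the other genes. Zfp260 and Zfp407 had 6 each, Zfp60, Zfp930 and Zfp951 had 5 each, and Zfp292, Zfp846, Zfp961 and Zfp97 had 4 each. In the range of 80 to 159 miR-181 reads, 37.5% of 24 members and 22.8% of 960 other genes had 2 or more, so the difference was also seen at like depth.

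Well-read sites of members were wider than those of other genes, though not at every depth. By miR-181 reads per gene, the widest site had a median of 26.5 nt in members and 26 nt in others at 20 to 39 reads. It was 53 and 42 nt at 40 to 79 reads, 67.5 and 66 nt at 80 to 159, and 155 (29 members) and 103 nt at 160 or more. The values that follow are not matched for depth. Among sites with 20 or more reads the median width was 100 nt over 115 member sites and 79 nt over 3255 sites of other genes, and 27 member sites (23.5%) spanned 150 nt or more against 8.17% of the others. The widest member site, in Zfp930, ran over 427 nt. Reads of members lay late in the gene: with the strand known, 57.3% of miR-181 reads in 140 members and 32.6% in 4877 other genes fell in the last 5000 nt of the gene's span. Member spans were also shorter, with a median of 20726 nt against 38938 nt. The gene table holds spans only, so whether a site is in coding sequence, an intron or an untranslated region was not analysed here.

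The site with most miR-181 reads was in Zfp809, at chr9:22238745-22239169 on the plus strand (GRCm38), within the gene's span of chr9:22225667-22254117. It held 661 of the gene's 799 miR-181 reads at 150 positions. The wild-type IP libraries had 12, 9 and 5 reads there and the wild-type enriched libraries 234, 211 and 155. The knockout IP libraries had 0, 0 and 0, whereas the knockout enriched ones had 7, 18 and 10. As a level this was 809 ± 20.2 rpm in the wild-type and 991 ± 447 rpm in the knockout enriched group, so the groups did not differ beyond their spread. Such a level is a share of a library's own chimeric reads. These numbered 194628 to 293149 in the wild-type and 6832 to 19264 in the knockout enriched libraries. Like levels therefore do not mean that as many contacts were kept. Of the 661 reads, 50.2% repeated the position, strand and miRNA of another read of the same library.

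Zfp157 came next by reads, with 444 in chr5:138456687-138456834 on the plus strand, of which 66.4% were such repeats. Its site had 11, 8 and 4 reads in the wild-type IP, 1, 0 and 0 in the knockout IP, 216, 123 and 69 in the wild-type enriched and 2, 5 and 5 in the knockout enriched libraries. Zfp930 had a site of 252 reads in chr8:69227933-69228359 and another of 163 reads in chr8:69228634-69228791, both on the plus strand. Neither had a read in the knockout IP, and the knockout enriched libraries had 5, 2 and 3 reads in the larger but 0, 1 and 0 in the smaller. Zfp260 had 247 reads in chr7:30104948-30105309, with 17, 7 and 4 in the wild-type and 1, 0 and 0 in the knockout IP. With repeats counted once, the Zfp809 site had 329 reads, the larger Zfp930 site 218, the Zfp260 site 211, the Zfp26 site described next 159 and the Zfp157 site 149, so Zfp157 was not second of the 8 by that count. The 8 most read sites were completed by Zfp26 with 208 reads in chr9:20437044-20437466, Zfp292 with 193 reads in chr4:34805031-34805139, and Zfp60 with 183 reads in chr7:27749864-27749931, of which 60.1% were repeats. Other miRNAs had 23 reads in the larger Zfp930 site and 10 or fewer in each of the other 7.

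**Figure D3:**
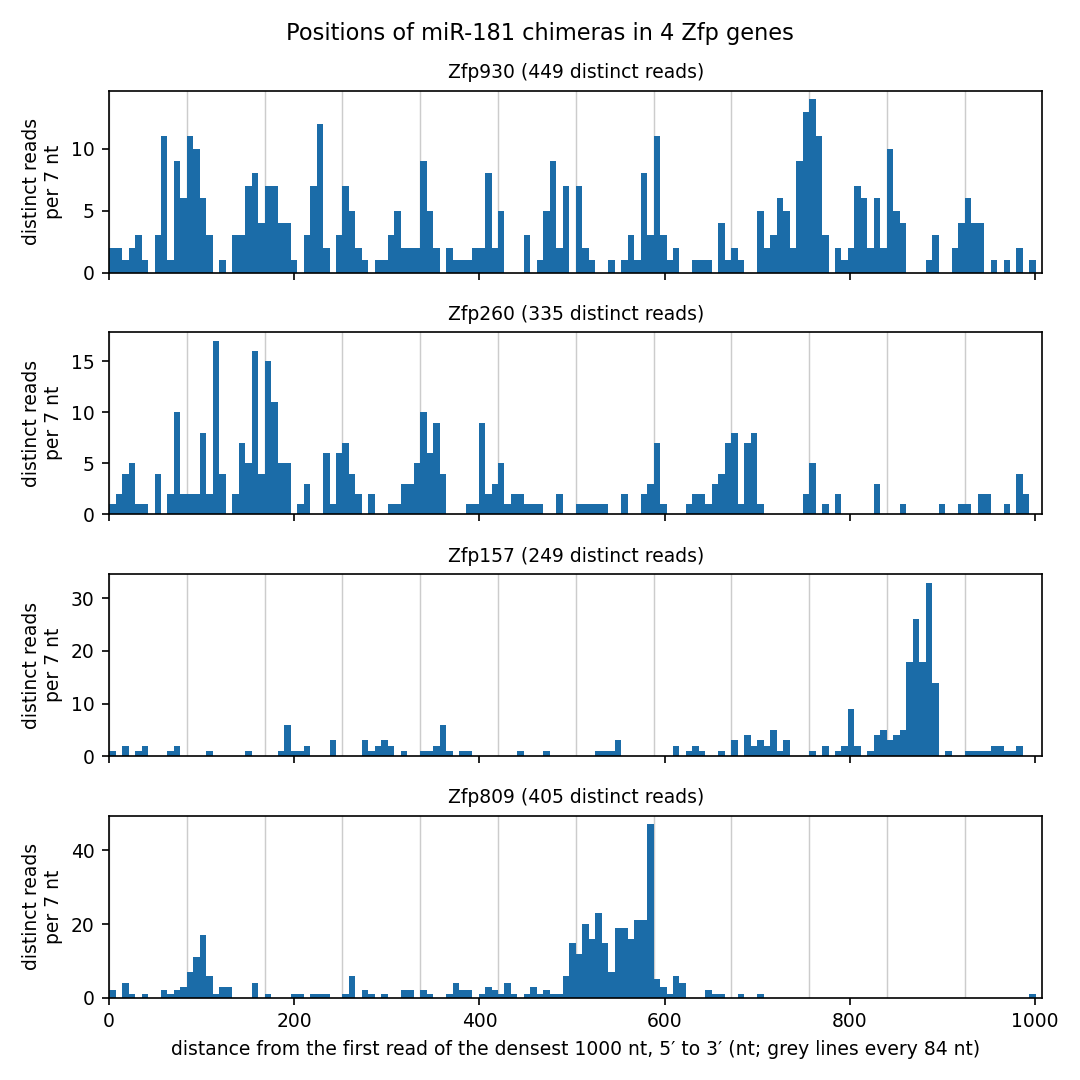
Distinct miR-181 reads (each position, strand and miRNA counted once per library) per 7 nt, over the densest 1000 nt of 4 Zfp genes; the horizontal axis is the distance in nt from that window's first read, and grey lines stand every 84 nt. In Zfp930 reads fell in a row of peaks along the window, while in Zfp809 and Zfp157 most lay in a single broad peak.

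Because the unit of a zinc-finger row is 84 nt, distances between the most read positions of a gene's sites were compared with its multiples. Over all sites up to 1000 nt apart, 15.0% of 16289 distances in members lay within 6 nt of a multiple. Even spacing over whole units of 84 nt gives 15.5%. This reference is somewhat too high, since chained sites cannot lie 20 nt or less apart. With sites of 3 or more reads it was 17.2% of 1460 distances, with 10 or more 19.0% of 200, and with 20 or more 27.7% of 47. In other protein-coding genes the shares were 14.1%, 14.2%, 15.9% and 16.5%. A surplus over 15.5% was therefore seen in members only for well-read sites, and the last value rests on few distances.

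A second measure, chosen after the data were seen, used every distinct read. In the densest 1000 nt of each gene with at least 30 distinct miR-181 reads there, the strength of a period was the squared mean of the read positions wound on a circle of that length, corrected for read number, so that reads spread evenly give about 0 and reads all in phase give 1. Reads gathered in a single cluster raise it at every period, so a value at 84 nt is given with those at 76 and 92 nt. Where both strands of a gene had enough reads they were taken as 2 sets, which gave 70 sets from 69 members and 1342 sets from 1337 other genes. In the members' sets the mean strength was 0.0353 at 76 nt, 0.0729 at 84 nt and 0.0452 at 92 nt. It was also high at longer periods, with 0.0633 at 102 nt and 0.0808 at 124 nt, so 84 nt was not the highest point of the curve. In those of the other genes the same periods gave 0.0948, 0.102 and 0.106, with a shallow local maximum of 0.105 at 87 nt, and all 3 were above the members' values. Within a scan limited to 70 to 100 nt, the strongest period was 82 to 86 nt in 23 of the members' 70 sets (32.9%) and in 131 of the others' 1342 (9.76%). With the wild-type enriched libraries alone the shares were 27.0% of 63 and 10.2% of 1132 sets.

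Single members differed in whether the strength at 84 nt stood out. In Zfp846 it was 0.281 from 85 distinct reads, against 0.0850 at 76 nt and 0.00185 at 92 nt. In Zfp930 (449 reads) the values at 76, 84 and 92 nt were 0.00616, 0.119 and 0.00336, and in Zfp260 (335 reads) 0.0131, 0.107 and 0.00574. In Zfp106, which had the highest strength at 84 nt, 0.332 from 32 reads, the neighbouring values were also high, 0.226 and 0.299, and in Zfp317 the value at 76 nt (0.312) was above that at 84 nt (0.253). Zfp157 had 0.102, 0.244 and 0.0883 from 249 reads, many of them in a single peak. These genes are named after their values were seen. Chimeras of other miRNAs could be measured in 12 members, of which 2 had a strongest period of 82 to 86 nt, too few to set beside the miR-181 value.

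**Figure D4:**
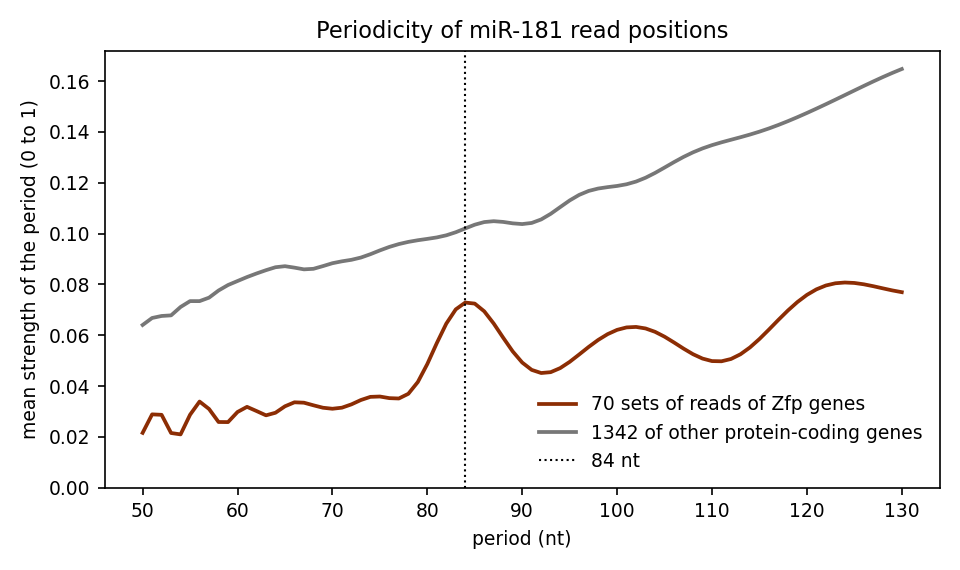
Mean strength of each period from 50 to 130 nt (vertical axis, near 0 for evenly spread reads and 1 for all reads in phase) in the positions of distinct miR-181 reads, for 70 sets of reads from Zfp genes and 1342 from other protein-coding genes. The Zfp curve has a local peak of 0.0729 at 84 nt and higher values near 124 nt (0.0808); the curve of the other genes lies above it at 84 nt (0.102) and has a shallow local maximum at 87 nt (0.105).

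Knockout and wild type were compared in the IP by the chimeric reads of each gene. Reads of every miRNA were pooled, relative to the library, so this cannot show which contacts depend on the deleted genes. Outside the members, miR-181 made a mean of 30.9% of wild-type IP reads on protein-coding genes but 1.39% of knockout ones. How far this drop moved the relative levels of single genes was not tested. Zfp930, Zfp260, Zfp809 and Zfp60 had fewer chimeric reads in the knockout, and Zfp91 and Zfp704 had more. All reads of a gene were tested, whatever their miRNA, with edgeR's quasi-likelihood test over all 1533 genes that passed a filter on low counts and an adjusted p (Benjamini-Hochberg) of at most 0.05. Of the 168 members 28 passed the filter, 4 were lower, beside a background of 6.65% of all genes tested, and 2 were higher, beside 2.87%. The 4 lower members had 0 to 8 reads per knockout library, so they passed the filter through the wild type alone. Zfp91 had 8 to 16 reads per wild-type and 16 to 19 per knockout library and passed mainly through the knockout. Nothing is read from these 2 counts. The median log2 fold change of the 28 was -0.08 and that of all genes tested 0.00432.

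Zfp930 stood at 365, 362 and 478 rpm in the wild type and 65.8, 88.7 and 76.8 rpm in the knockout. The groups were far apart, with a log2 fold change of -2.32 (SE 0.34, adjusted p = 4.37e-07, edgeR). Zfp260 stood at 416, 362 and 296 rpm against 98.7, 118 and 96.0 rpm, a log2 fold change of -1.84 (SE 0.32, adjusted p = 1.40e-05, edgeR). Zfp809 fell from 187, 275 and 227 rpm to 65.8, 0 and 76.8 rpm, a log2 fold change of -2.30 (SE 0.51, adjusted p = 0.000903, edgeR). All 3 knockout libraries of each gene lay below all 3 wild-type ones, which is a description, since each gene passed the filter through the wild type.

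Zfp60 stood at 187, 174 and 159.2 rpm in the wild type and at 32.9, 59.1 and 76.8 rpm in the knockout (log2 fold change -1.67, SE 0.51, adjusted p = 0.0234, edgeR). Their miR-181 reads, pooled over 3 libraries, went from 53 to 1 in Zfp930, 51 to 3 in Zfp260, 41 to 0 in Zfp809 and 31 to 2 in Zfp60. The 3 knockout reads of miR-181 in Zfp260 were all miR-181c-5p. Reads of other miRNAs went from 36 to 13 in Zfp930 and from 36 to 16 in Zfp260, with log2 fold changes of -1.60 (SE 0.50, adjusted p = 0.0597, edgeR) and -1.31 (SE 0.47, adjusted p = 0.130, edgeR) when tested alone. In Zfp809 and Zfp60 they went from 10 to 8 in each gene, and these 2 did not pass the filter of that fit.

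Zfp91 rose from 136, 130 and 182 rpm to 313, 251 and 307 rpm (log2 fold change 0.97, SE 0.31, adjusted p = 0.0319, edgeR). Zfp704 rose from 204, 232 and 273 rpm to 428, 370 and 422 rpm (log2 fold change 0.81, SE 0.26, adjusted p = 0.0342, edgeR). In both genes the groups did not overlap, which is a description, since the genes are named for being called in this comparison. The groups also did not overlap in some members that were not called, such as Zfp148 and Zfp638. In the wild-type IP miR-181 made 2 of 33 reads in Zfp91 and 21 of 52 in Zfp704. With chimeras of other miRNAs alone, Zfp704 was the 1 member of 22 tested that was called, with a log2 fold change of 1.05 (SE 0.30, adjusted p = 0.0317, edgeR), and Zfp91 had one of 0.58 (SE 0.33, adjusted p = 0.462, edgeR).

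Members not called included well-read genes. Zfp292 had 458, 637 and 705 rpm in the wild type and 461, 547 and 614 rpm in the knockout, and Zfp644 had 492, 521 and 682 against 576, 577 and 518 rpm. Their groups overlapped, although miR-181 reads went from 55 to 0 in Zfp292 and from 49 to 0 in Zfp644. Zfp407 had 594, 507 and 523 rpm against 625, 739 and 537 rpm, and 53 against 0 miR-181 reads. Over all members the miR-181 reads went from 1497, found on 155 members, to 44, found on 36. DESeq2 called 3 members, all lower, namely Zfp930, Zfp260 and Zfp809. These 3 calls also held in each of the 6 fits that left out 1 library, while the others did not. The call of Zfp91 held in 2 of the 6 fits and was lost without library 1 or 2 of the wild type or 1 or 3 of the knockout, with an adjusted p (edgeR) of 0.0899 to 0.143. The call of Zfp704 held in 1 of the 6, without wild-type library 3, and its adjusted p (edgeR) was 0.0539 to 0.212 in the others. Without a filter on low counts the adjusted p (edgeR) was 0.183 for Zfp91 and 0.202 for Zfp704. Zfp60 was lost without knockout library 1 or 2 (adjusted p = 0.108 and 0.0695, edgeR), did not pass the filter without wild-type library 1 or 2, and had an adjusted p of 0.0522 (edgeR) with the replicate number as a block. The number of calls without knockout library 1 was 11 of 41 members tested, all lower.

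**Figure D5:**
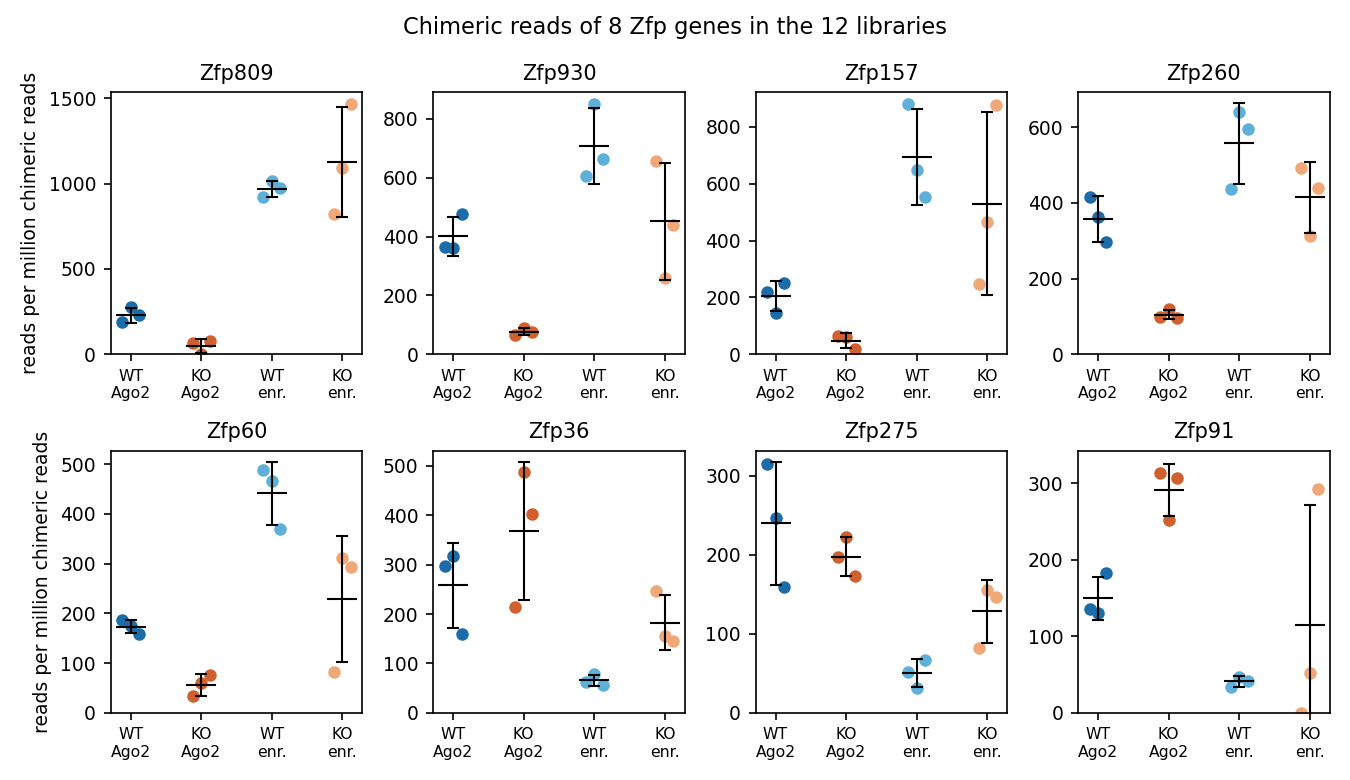
Chimeric reads of 8 Zfp genes in each of the 12 libraries (reads per 1000000 chimeric reads, vertical axes starting at 0 with a scale per gene); bars are the mean and SD of 3 libraries. Zfp809, Zfp930, Zfp260 and Zfp60 were lower in the knockout than in the wild-type IP, Zfp91 was higher, and Zfp36 and Zfp275 were lower in the wild-type enriched group than in the wild-type IP.

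In the enriched libraries the same comparison of knockout and wild type rested on few knockout reads. Zfp866, Zfp944, Zfp951, Zfp68, Zfp961 and Zfp626 were lower in the knockout. Of 54 members that passed the filter 6 were lower, beside a background of 1.76% of 2045 genes tested, and 0 were higher, beside 1.03%. The 6 had 176 to 308 wild-type and 1 to 4 knockout reads, so they passed the filter through the wild type alone, and nothing is read from their count. At an unadjusted p under 0.05 (edgeR) 16 members were lower and 1 was higher, beside 346 of all 2045 genes in either direction. DESeq2 called 0 in either direction, with 9 lower and 0 higher unadjusted. DESeq2 gave no adjusted p for 21 of the 54, none of them among the 6. The median log2 fold change was -0.66 over the 54 members and -0.14 over all genes tested.

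Zfp944 stood at 324, 335 and 339 rpm in the wild type and at 0, 0 and 146 rpm in the knockout, where the only read was in the shallowest library. From 246 reads against 1, the ratio of pooled levels in rpm was 12.7 with an exact 95% counting interval of 2.26 to 504 (edgeR adjusted p = 0.0136). Zfp866 stood at 249, 300 and 334 rpm against 0, 51.9 and 0 rpm, a pooled ratio of 11.1 (interval 1.96 to 439, adjusted p = 0.0129, edgeR). Zfp68 had the most knockout reads of the 6, with 372, 481 and 396 rpm in the wild type and 82.1, 51.9 and 293 rpm in the knockout (log2 fold change -2.25, SE 0.50, adjusted p = 0.0190, edgeR). The wide intervals show how little 1 to 4 knockout reads can say about size.

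Zfp951 had 3 knockout reads and a pooled ratio of 3.92 (interval 1.33 to 19.2, adjusted p = 0.0178, edgeR). Zfp961 had 2 and a ratio of 4.54 (interval 1.24 to 37.8, adjusted p = 0.0447, edgeR), and Zfp626 had 1 and a ratio of 9.55 (interval 1.69 to 379, adjusted p = 0.0482, edgeR). Without knockout enriched library 1, 0 of 97 members tested were called, without library 2 1 of 105, and without library 3 5 of 102. Without any one of the wild-type enriched libraries the filter passed 6 to 8 members and 0 were called. A fit of miR-181 chimeras alone called 0 of 55 members.

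Zfp809 was not among the 6 called, with a log2 fold change of -0.14 (SE 0.22, adjusted p = 0.811, edgeR). Other well-read members had changes as small, among them Zfp292 (-0.12) and Zfp638 (-0.07). The level of Zfp809 in the enriched libraries was 921, 1014 and 976 rpm in the wild type and 821, 1090 and 1464 rpm in the knockout. These ranges overlapped, although the knockout IP level of Zfp809 was below the wild type's. Levels in rpm are shares of a library's own reads, so the overlap does not mean that as many contacts were kept. The knockout enriched reads of Zfp809 numbered 41, all with miR-181, which is 8.61% of all 476 miR-181 reads on members in that group and the most of any member. Of the 41, 23 carried miR-181a-5p (56.1%, Wilson interval 41.0% to 70.1%), 14 miR-181c-5p, 2 miR-181b-5p and 2 miR-181d-5p. On the other members 179 of 435 reads carried miR-181a-5p (41.1%, interval 36.6% to 45.8%), and the intervals overlap.

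The difference between the knockout effects in the enriched and the IP libraries was tested over all 12 libraries. For Zfp809 the knockout effect was higher in the enriched libraries by 2.04 on the log2 scale (SE 0.54, adjusted p = 0.0241, edgeR). Of 50 members tested it was the 1 called higher, beside a background of 1.59% of 2015 genes, and 0 were called lower, beside 0.149%. At an unadjusted p under 0.05 edgeR had 5 members higher and 5 lower, beside 251 of all 2015 genes in either direction. DESeq2 called 1 higher and 0 lower. The call was lost without library 2 or 3 of the wild-type IP, library 1 or 2 of the knockout IP, or library 2 or 3 of the knockout enriched group, with values from 1.43 to 2.43 over the 12 fits that left out 1 library.

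The enrichment for miR-181 was compared with the IP in the wild type. Zfp809, Zfp157, Zfp113, Zfp810, Zfp60, Zfp68 and Zfp930 were among the members that were higher after enrichment, and Zfp275, Zfp382 and Zfp36 among those that were lower. Of 80 members that passed the filter 36 were higher, beside a background of 19.3% of 2909 genes tested, and 9 were lower, beside 15.4%. The median log2 fold change of these 80 was 0.76 and that of all genes tested -0.02. Some passed the filter through the enriched group where they were high, such as Zfp583 with 4 IP against 69 enriched reads. The choice of members also drew most of its reads from that group, 14159 of 20802. Nothing is read from these counts or this median. DESeq2 called 23 higher and 5 lower.

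Zfp809 stood at 187, 275 and 227 rpm in the IP and at 921, 1014 and 976 rpm after enrichment, a log2 fold change of 2.46 (SE 0.19, adjusted p = 2.49e-16, edgeR). Zfp157 stood at 221, 145 and 250 rpm against 880, 647 and 555 rpm, a log2 fold change of 2.14 (SE 0.22, adjusted p = 8.36e-12, edgeR). All 3 enriched libraries lay above all 3 IP libraries in both genes. This is a description, since both are named for their small p in this comparison and drew most of their reads from the enriched group. Repeats made up 27.9% to 34.1% of reads in the wild-type enriched and 3.42% to 4.72% in the wild-type IP libraries. With identical reads counted once the log2 fold change was 1.75 for Zfp809 and 1.27 for Zfp157, and both were still called (edgeR adjusted p = 6.78e-15 and 1.05e-06). Zfp113 (1.93), Zfp810 (1.69), Zfp60 (1.68), Zfp68 (1.52) and Zfp930 (1.21) had smaller log2 fold changes, each with an edgeR adjusted p of 1.63e-06 or less.

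Zfp275 stood at 314, 246 and 159.2 rpm in the IP and at 51.2, 31.6 and 66.8 rpm after enrichment, a log2 fold change of -2.04 (SE 0.32, adjusted p = 5.86e-07, edgeR). Zfp382 fell by 1.97 on the log2 scale and Zfp36 by 1.69. Among members with 30 or more wild-type IP reads, the 15 called higher had miR-181 shares of 38.9% (Zfp654) to 84.6% (Zfp944) there, and the 8 called lower shares of 4.92% (Zfp275) to 25% (Zfp131). The 18 not called had shares of 7.32% (Zfp831) to 42.6% (Zfp292), a range that overlapped both others. The ranges of those called higher and lower did not overlap, but the share and the fold change use the same IP reads. Moreover, 99.1% of the members' wild-type enriched reads carried miR-181. With miR-181 chimeras alone 66 members were tested and Zfp809 was the 1 called, with a log2 fold change of 1.07 (SE 0.21, adjusted p = 0.00218, edgeR).

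In the knockout the enrichment could be tested on 11 members, of which Zfp809 and Zfp260 were higher, beside a background of 15.4% of 762 genes, and 0 were lower, beside 4.99%. The 2 had 0 to 4 (Zfp809) and 5 to 8 (Zfp260) reads per IP library. They passed the filter through the enriched group, so nothing is read from their number. At an unadjusted p under 0.05 edgeR had 3 of the 11 members in either direction, 1 of them lower, beside 235 of all 762 genes. DESeq2 also called 2 higher and 0 lower. Zfp809 went from 65.8, 0 and 76.8 rpm to 821, 1090 and 1464 rpm, a log2 fold change of 4.66 (SE 0.47, adjusted p = 6.10e-11, edgeR). Zfp260 went from 98.7, 118 and 96.0 rpm to 492, 311 and 439 rpm, a log2 fold change of 2.03 (SE 0.46, adjusted p = 0.000670, edgeR). Zfp260 was not called without knockout enriched library 1 (adjusted p = 0.0709, edgeR) or without a filter (adjusted p = 0.188, edgeR). Without any 1 of the knockout IP libraries 5 members were tested and Zfp809 alone was called. Without knockout enriched library 1, 2 or 3, the calls numbered 4, 4 and 7. These comparisons share libraries with those above, so their values are set side by side and not counted as separate evidence.

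The proteins through which KRAB zinc fingers act were themselves read. Of 18 corepressor genes, among them Trim28, the silencing methyltransferase gene Setdb1 and the HUSH complex gene Tasor, 6 could be tested for the knockout in the IP and 12 in the enriched libraries, and edgeR and DESeq2 called 0 in either. At an unadjusted p under 0.05 these were 0 in the IP and 1, Dnmt1, higher in the enriched libraries by both tools. Over all genes edgeR had 333 of 1533 in the IP and 346 of 2045 in the enriched libraries, in either direction. DESeq2 gave no adjusted p for 4 of the 12, Dnmt1 among them. Wild-type enrichment was tested on 15, of which 4 were higher and 2 lower, counts near the background of 19.3% and 15.4% of all genes tested. Uhrf1, which reads hemimethylated DNA, rose by 1.94 on the log2 scale (SE 0.37, adjusted p = 2.95e-05, edgeR), and the chromatin remodeller gene Chd4 (1.02), Setdb1 (0.81) and its cofactor gene Atf7ip (0.54) rose as well. The DNA methyltransferase gene Dnmt1 (-1.37) and Tasor (-1.05) fell. DESeq2 called Uhrf1 and Chd4 higher and Dnmt1 and Tasor lower, and 0 others of these 15. With identical reads counted once, Chd4 (0.30, adjusted p = 0.235, edgeR) and Setdb1 (0.65, adjusted p = 0.0612, edgeR) were not called. In the knockout the enrichment was tested on 2 of the 18, and Chd4 was higher (log2 fold change 1.07, SE 0.39, adjusted p = 0.0426, edgeR), a call lost with DESeq2 and with identical reads counted once.

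The members lay on 20 chromosomes, with 39 on chromosome 7, 21 on chromosome 17 and 16 on chromosome 13, where zinc-finger genes stand in clusters. Many are near copies of each other, and how the submitters placed reads that match several copies is not given in the sources used here. Counts of single members may therefore hold reads of a neighbour, and the sites above are positions as deposited.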

How the data were processed

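Chimeric reads were deposited by the authors as read counts: each line of a deposited file is a count of 1 read at a position 1 nt wide, with its strand and miRNA, unscaled and not pooled. The submitters' processing notes name Bowtie2 2.4.5, SAMtools 1.11, STAR 2.7.10, UMI-tools 1.1.1 and bedtools 2.30.0 and the builds mm10 and GRCm38.p6, without their roles; the treatment of reads that match several places is not given in the sources used here. Per the labels' protocols a company made the libraries from cells crosslinked at 254 nm.

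The members and lists were chosen with earlier results of these data known. Reads in miRNA hairpins (8.30%) were set aside, and a read was counted for a gene where exactly 1 protein-coding span of the RefSeq GRCm38.p6 table held it, without regard to strand, which placed 81.6% of reads. Of the rest, 1.44% of reads lay in several spans. Levels are reads per 1000000 chimeric reads of the library (rpm). Within a library 3.24% to 34.1% of reads repeated another's position, strand and miRNA, and all were kept; intervals and floors therefore cover counting error only.

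Gene counts were tested with edgeR 4.0.16 in R 4.3.3 (quasi-likelihood test, scaling by TMM, genes kept by filterByExpr at min.count 10), fitted on all protein-coding genes of the groups compared, with Benjamini-Hochberg adjustment over all genes tested and calls at an adjusted p of at most 0.05; the script was tested on simulated data. SE is the log2 fold change over the square root of F. A member passed the filter mainly where it was well read, so the members tested are not all members. DESeq2 1.42.0, other settings and leaving out each library were alternatives. Shares over all genes are given for the main fits only, so counts of members from alternatives are set beside the main counts alone. Replicate numbers come from the sample titles, which do not tie them to animals. Sites, spacing and shares were computed in Python 3.11.15 with pandas 2.3.3 and scipy 1.17.1 and were not tested.

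Genes named are the 8 with most reads, the 8 with most sites, at most 10 called per comparison by smallest p, those beside the 20-read threshold, the 4 highest and 4 lowest miR-181 shares, the 8 most read sites and called corepressors; others are named as chosen after their values were seen, by rank or as the ends of a range. Spans were used in place of exons, and the 84-nt unit is the textbook length of a finger, since no genome sequence or protein table was used here.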

Additional observations from a re-analysis of the deposited data

Results flagged for a closer look

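For Zfp809 the effect of the knockout differed between the 2 kinds of library by a test of the difference itself. The knockout effect was higher in the miR-181-enriched than in the IP libraries by 2.04 on the log2 scale (SE 0.54, adjusted p = 0.0241, edgeR). In the IP all 3 knockout libraries lay below the 3 wild-type ones (47.5 ± 41.5 against 229.7 ± 44.2 rpm, n = 3 each). In the enriched libraries the knockout (1125 ± 323 rpm) overlapped the wild type (970 ± 46.7 rpm). These levels are shares of a library's own reads and do not measure how many contacts were kept. Counting identical reads once gave a difference of 2.71 (edgeR adjusted p = 0.000127), over a range of adjusted p from 0.000127 to 0.390 across its alternatives. Groups of 3 libraries were too small to be searched for single outlying samples.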

How the results depend on the processing

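The direction of all 25 results for named genes was kept in all 310 alternative values, of which 242 stayed on the same side of the threshold and 68 lost it. Fits in which a gene did not pass the filter gave no value and are not among the 310: Zfp60 had 4 values from the 6 fits without 1 library of the IP. The 25 were called first and refitted on largely the same reads, so a kept direction is a description only. For the knockout in the IP, 6 members were called, and DESeq2 called 3, the fit without a filter 15 of 168 tested, and chimeras of other miRNAs alone 1; miR-181 chimeras alone gave no value, since no member passed the filter. Leaving out 1 library gave 4 to 11. For the knockout in the enriched libraries the 6 calls became 0 with DESeq2, 0 with miR-181 chimeras alone and 10 without a filter, and 0 to 5 without 1 library; chimeras of other miRNAs alone gave no value. For the wild-type enrichment the 45 calls became 28 with DESeq2, 1 with miR-181 chimeras alone and 0 of 2 tested with chimeras of other miRNAs alone, and 35 to 45 without 1 library. For the knockout enrichment the 2 calls became 7 without a filter, 0 with chimeras of other miRNAs alone, 5 with knockout enriched libraries 2 and 3, which a chi-square test over genes of 20 or more reads did not tell apart, summed as 1 sample, and 1 to 7 without 1 library. The 1 call of the difference of knockout effects became 0 without a filter, 0 with miR-181 chimeras alone and 0 with chimeras of other miRNAs alone, and 0 to 1 without 1 library. Fits without a filter or with 1 miRNA class test other genes and reads; beyond that the cause was not tested.

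The numbers in the titles did not pair the libraries: same-numbered libraries had correlations of -0.11 to 0.12. With the replicate number as a block, the counts of calls were 6, 0, 46, 2 and 1 in the order above, so the 6 calls of the knockout in the enriched libraries were lost and the other counts stayed within 1. In the IP 5 of the 6 calls were shared, and Zfp60 was lost (adjusted p = 0.0522, edgeR).

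The members' miR-181 share became 41.6% in the wild-type IP over members with 50 or more reads. As a median over members with 5 or more reads in a library it was 41.5%, 0%, 100% and 90.5% in the wild-type IP, knockout IP, wild-type enriched and knockout enriched groups. Leaving out 1 library gave 39.6% to 40.5%, 1.63% to 2.20%, 99.0% to 99.2% and 76.4% to 79.8%. The median of 21 sites per member became 3.5 with sites of 3 or more reads and 4 in the wild-type IP libraries alone. The share of distances near a multiple of 84 nt became 17.2% with sites of 3 or more reads. It was 8.29% with a tolerance of 3 nt, where even spacing over whole units gives 8.33%, a reference that is again somewhat too high. The share of sets with a strongest period of 82 to 86 nt, 32.9%, ranged from 24.3% to 33.9% over 4 alternatives chosen after seeing the data, and from 5.96% to 10.7% in other genes. Depth limits the knockout most, with 6832 to 19264 reads in an enriched library.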
